A study of Mus musculus with 18 samples.

Results

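Splicing factors and the kinases that act on them were followed at the mRNA level in macrophages after a block of transcription. The set held 43 gene symbols chosen by name: the CLK kinases, the L-type cyclins, other splicing kinases, SR and SR-like proteins, RNA-binding motif (RBM) proteins, heterogeneous nuclear ribonucleoproteins (hnRNPs) with Ptbp1, and factors associated with the U1 and U2 snRNPs. The choice was made with earlier results of these data known. A row carrying a single gene symbol measured 40 of the 43, and the brightest row stood for each gene. Clk2 and Hnrnpa1 were on the array only in rows shared by several symbols, and no row was listed for Srsf7, so these 3 were not analysed here. The whole table held 19454 genes, of which 10258 were bright enough to be tested, the 40 genes among them. Each of the 40 had a mean over all 18 arrays above the limit for testing, a log2 intensity of 3.03. The dimmest against that limit was Clk4, with a mean of 4.25, so none was tested only because 1 group was high.

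The cells were bone marrow-derived macrophages, which are grown from marrow precursors in medium with macrophage colony-stimulating factor. They came from TTP-/- mice (KO) or Wt mice (WT), both given as strain C57Bl/6, and RNA was read on Affymetrix Mouse Gene ST 1.0 arrays. TTP, encoded by Zfp36, binds AU-rich elements in mRNAs and speeds their decay, and the series asks which mRNAs depend on it. All cells of both genotypes received lipopolysaccharide (LPS) for 3 h, and then fresh medium holding SB203580, which inhibits p38 kinase, together with actinomycin D to stop transcription. RNA was taken at 0, 45 or 90 min after that change, which made 6 groups, KO and WT at each time, with 3 arrays each. Time without transcription and time with the p38 inhibitor were thus the same variable, and no group lacked LPS. The labels do not say whether the 3 arrays of a group came from separate animals or cultures, so the p-values measure the spread between these arrays, which may be technical.

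SR proteins bind exonic sequences and recruit the splicing machinery, while hnRNPs often oppose them. CLK kinases phosphorylate SR proteins in the nucleus and release them from nuclear speckles, and SRPK kinases act on them mainly in the cytoplasm. Many transcripts of SR proteins and CLK kinases are themselves alternatively spliced, and some isoforms keep an intron or carry an early stop codon. Each gene was read here from 1 row, an RMA summary of that row's probes, so isoforms were not separated.

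Zfp36 itself had log2 intensities of 6.25, 6.75 and 6.81 in KO cells at 0 min, against 7.95, 7.86 and 7.12 in WT cells. The difference of -1.04 ± 0.32 (SE) did not pass the test (adjusted p = 0.564). The sources do not say whether the probes of this row lie in the deleted part of the gene, so it does not check the genotype labels. All 8 macrophage markers were above the limit for testing in their mean over all 18 arrays, and their summed intensity lay between 9358 and 13183 on every array. None of the 5 T cell, 4 B cell and 6 neutrophil markers measured was above the limit, and 1 of 4 dendritic cell markers was. Of the 8 fibroblast markers, 5 were above the limit, and no marker list was at a summed intensity of 0. The summed intensity of the fibroblast markers was low, 73.9 to 89.5 in KO cells at 90 min against 65.9 to 76.5 at 0 min, and 75.4 to 102.1 in WT cells at 90 min against 70.2 to 79.6 at 0 min. Col1a2, which encodes a collagen chain, was higher at 90 min over both genotypes by 0.43 ± 0.10 on the log2 scale (adjusted p = 0.0304). The part of these markers in the changes over time was not tested, and in bulk RNA fewer cells of a type and less RNA per cell cannot be told apart.

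The 18 arrays fell into 2 runs of title numbers, and replicate 3 of every group belonged to the smaller run. The leading principal component, with 29.0% of the variance, separated the runs, with scores of 11.97 to 30.9 for the 6 arrays of the smaller run and -23.1 to -5.76 for the 12 others. The labels do not say what the runs stand for. Replicate 3 of WT cells at 0 min also stood apart from its own group: it correlated with the other 2 arrays at 0.941 and 0.948, whereas those 2 correlated at 0.988. On that array the median of the 40 genes lay 0.57 above the mean of replicates 1 and 2 on the log2 scale, against 0.11 for all genes tested, and 33 of the 40 genes were highest there, as were 50.2% of all genes. In KO cells at 0 min replicate 3 was the highest array for 26 of the 40 genes and for 48.7% of all genes. In WT cells at 0 min replicate 3 differed from that mean by more than 1 for 11 of the 40 genes and 11.2% of all genes tested. In the 5 other groups none of the 40 differed by more than 1, against 1.87 to 4.95% of all genes. Results that rest on WT cells at 0 min are therefore given with and without replicate 3 of that group.

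**Figure D1:**
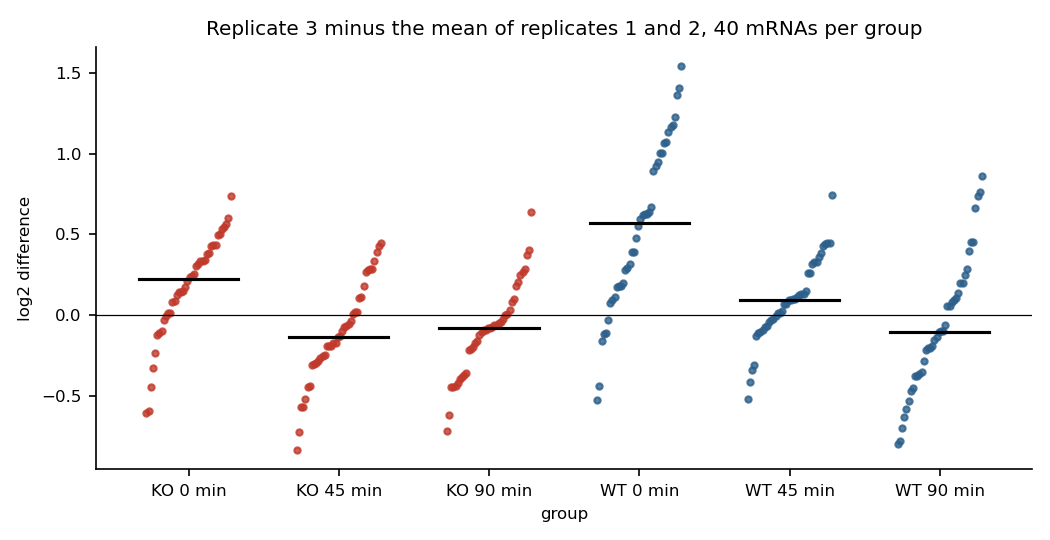
Log2 difference (y axis) between replicate 3 and the mean of replicates 1 and 2 in each group (x axis), 1 point for each of 40 mRNAs, with the median as a black bar. The medians are 0.22, -0.14 and -0.08 in KO cells at 0, 45 and 90 min and 0.57, 0.09 and -0.10 in WT cells, and differences above 1 occur only in WT cells at 0 min.

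Windows before 3 transcription starts, those of Ccnl1, Clk3 and Clk4, are shown so that these promoters can be set side by side. All 3 hold the letters marked below, and their mRNAs were among those with the largest falls over time. The window of Srsf4, which fell about as much as Clk3, holds no such letters and is not shown. Each window shown is the 150 bases before the first start listed for the gene in RefSeq (GRCm38.p6), 5′ to 3′ on the gene's strand. Capitals mark TGACG, the half-site of the cAMP response element, or its complement CGTCA. The windows are chr3:65958250-65958399 (minus strand) for Ccnl1, chr9:57765115-57765264 (minus strand) for Clk3 and chr11:51262964-51263113 (plus strand) for Clk4. For Ccnl1 and Clk3 the annotated gene begins farther upstream, so that these starts are internal to it. The window of Clk1 was not analysed here.
Ccnl1: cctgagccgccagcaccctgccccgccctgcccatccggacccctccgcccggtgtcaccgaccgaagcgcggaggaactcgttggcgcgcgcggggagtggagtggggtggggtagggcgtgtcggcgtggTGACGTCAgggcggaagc
Clk3: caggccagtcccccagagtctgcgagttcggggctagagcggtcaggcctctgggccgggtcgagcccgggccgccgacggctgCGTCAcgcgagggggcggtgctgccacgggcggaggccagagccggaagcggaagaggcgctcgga
Clk4: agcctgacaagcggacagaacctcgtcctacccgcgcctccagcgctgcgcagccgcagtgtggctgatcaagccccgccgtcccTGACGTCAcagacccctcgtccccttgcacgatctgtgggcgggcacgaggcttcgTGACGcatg
The whole palindrome TGACGTCA, which is read the same on both strands and holds the half-site on each, stood in the Ccnl1 and Clk4 windows. Clk3 held a half-site only, and the Srsf4 promoter held none within 250 bases. Over that longer window the palindrome occurred in 3 of the 39 symbols of the set with an entry, Ccnl1, Clk4 and Tra2a, which is 7.69%, against 1.62% of 27025 promoters. The half-site, searched on both strands, was in 21 of the 39 (53.8%) against 17.9% of all promoters. Of these 21, only Ccnl1 and Clk3 were called lower at 90 min over both genotypes, and Tra2a, which holds the palindrome, was not. The GC box GGGCGG was in 27 of 39 (69.2%) against 32.9%, CCAAT in 19 (48.7%) against 34.5%, and TATAAA in 3 (7.69%) against 13%. All promoters include those of genes too dim to be tested here, and base composition was not matched. These are matches of letters and say nothing of whether a factor bound there. Whether they bear on the falls was not tested.

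Over both genotypes, 4 of the 40 mRNAs were lower at 90 min than at 0 min, and 3 of the 4 encode kinases or cyclins: Clk1, Ccnl1, Clk3 and the SR protein Srsf4. That is 10% of the genes measured, against 2.28% of all genes tested that were lower. The genes were chosen with earlier results of these data known, so this share does not test whether they fall more often than others. None of the 40 was higher (0.0585% of all genes), and at an unadjusted p under 0.05 there were 6 lower (8.33% of all genes) and 1 higher (1.68% of all genes). The median change of the 40 genes was 0.01 on the log2 scale, against 0.02 for all genes tested, and 19 of the 40 (47.5%) had a value below 0, against 45.4% of all genes. RMA, the authors' normalization, brings the probe signals of every array to a common distribution, so each change is relative to the general signal of its array. The summarized values still differed somewhat, with array medians of 7.41 to 8.19 on the linear scale. Among the kinases and cyclins the median was -0.29, with 3 of 8 lower. The medians were 0.05 for 13 SR and SR-like proteins with 1 lower, -0.09 for 3 RBM proteins, 0.05 for 9 hnRNPs and Ptbp1, and 0.00 for 7 factors of the U1 and U2 snRNPs, with none called in these last groups.

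**Figure D2:**
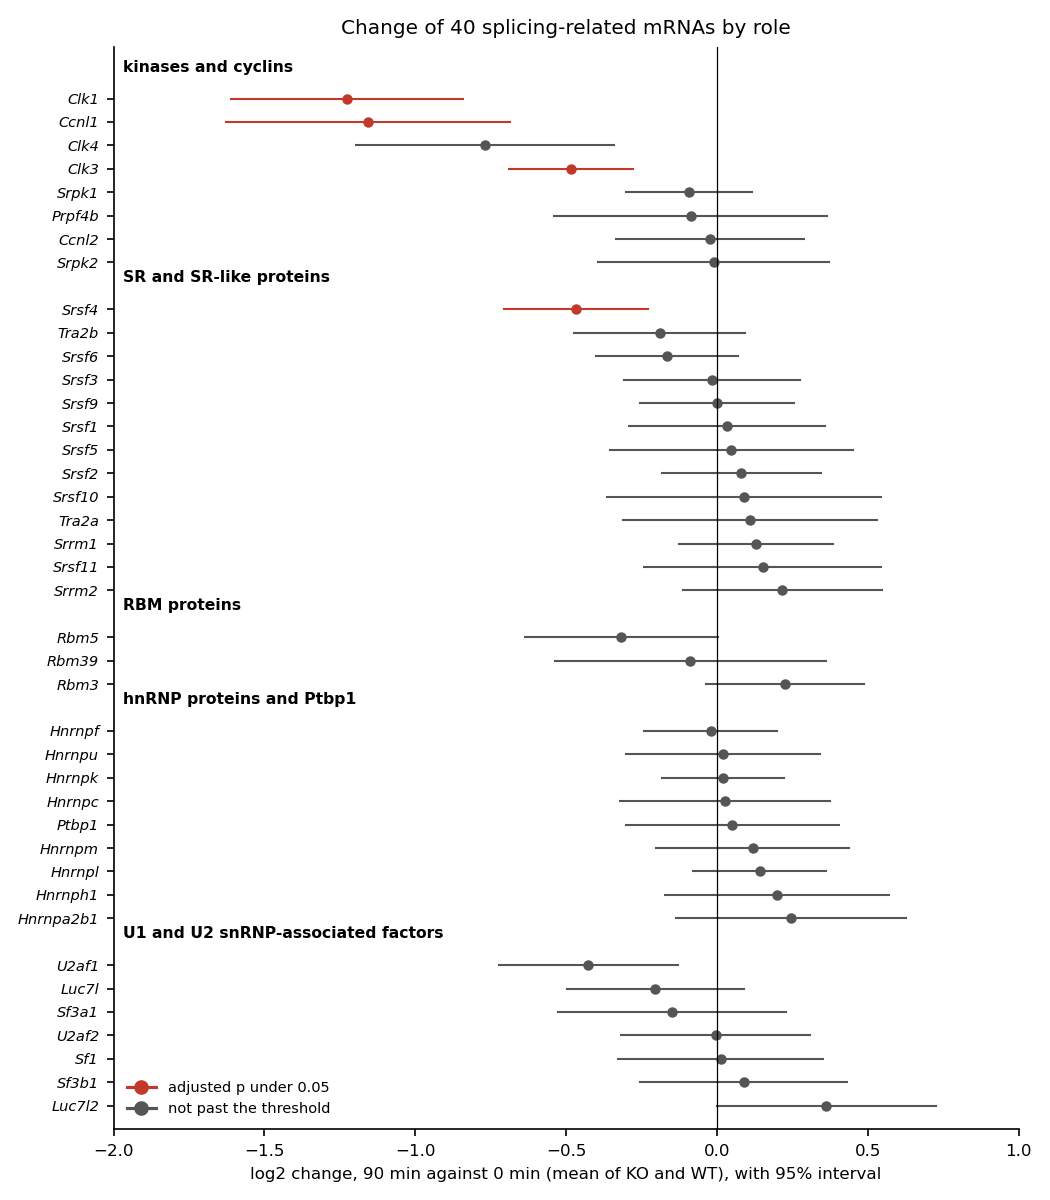
Log2 change from 0 to 90 min averaged over KO and WT (x axis), with 95% intervals, for 40 mRNAs grouped by role and ordered by size within each group. Points in red passed an adjusted p of 0.05: Clk1 at -1.23, Ccnl1 at -1.16, Clk3 at -0.48 and Srsf4 at -0.47.

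Clk1 encodes a dual-specificity kinase of SR proteins and lies at chr1:58411988-58424088. In KO cells its log2 intensities were 6.71, 6.98 and 6.99 at 0 min, 5.68, 5.41 and 5.44 at 45 min, and 5.25, 5.59 and 5.66 at 90 min. In WT cells they were 6.40, 5.90 and 7.28 at 0 min, 6.03, 5.83 and 6.36 at 45 min, and 5.36, 5.71 and 5.33 at 90 min. All later KO arrays lay below all KO arrays at 0 min, and in WT cells the arrays at 90 min lay below those at 0 min while those at 45 min overlapped them. At 90 min Clk1 had fallen by 1.23 ± 0.18 (SE) on the log2 scale over both genotypes (limma, adjusted p = 0.000714), which left 42.75% of its level at 0 min relative to the average mRNA (95% interval 32.72 to 55.85). Without WT replicate 3 at 0 min the change was -1.04 (adjusted p = 0.00038).

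Ccnl1 encodes cyclin L1, a partner of CDK11 found in nuclear speckles, at chr3:65945908-65962029. It measured 7.35, 7.65 and 7.27 at 0 min, 6.42, 6.38 and 5.67 at 45 min, and 6.23, 6.83 and 5.81 at 90 min in KO cells. In WT cells it measured 6.54, 6.64 and 7.75 at 0 min, 6.54, 6.32 and 6.32 at 45 min, and 5.90, 6.17 and 5.33 at 90 min. The 90 min arrays of each genotype lay below its 0 min arrays. The change over both genotypes was -1.16 ± 0.22 (adjusted p = 0.00694), leaving 44.85% (95% interval 32.35 to 62.19). Replicate 3 had the larger change in each genotype: -1.46 in KO cells against -1.12 and -0.83 in the other replicates, and -2.42 in WT cells against -0.64 and -0.47. In the 12 arrays of the larger run the change was -0.76 and passed (adjusted p = 0.00653).

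Clk3, at chr9:57750621-57766235, encodes another kinase of the CLK family. Its log2 intensity was 6.33, 6.25 and 6.63 at 0 min, 6.09, 5.95 and 6.30 at 45 min, and 6.14, 6.26 and 6.14 at 90 min in KO cells. In WT cells it was 6.61, 6.57 and 6.55 at 0 min, 6.03, 6.10 and 6.16 at 45 min, and 5.90, 5.71 and 5.90 at 90 min. WT groups did not overlap between times, whereas KO arrays at 90 min overlapped those at 0 min. The change over both genotypes was -0.48 ± 0.10 (adjusted p = 0.00978), leaving 71.52% (95% interval 62.01 to 82.50), and it no longer passed when arrays were centred on ribosomal protein genes (adjusted p = 0.0671).

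Srsf4, which encodes an SR protein and lies at chr4:131873530-131901725, had values of 6.71, 6.89 and 7.33 at 0 min, 6.78, 6.58 and 6.79 at 45 min, and 6.50, 6.73 and 6.55 at 90 min in KO cells. The WT values were 6.83, 6.98 and 7.08 at 0 min, 6.80, 6.79 and 6.92 at 45 min, and 6.31, 6.31 and 6.60 at 90 min. Arrays at 90 and 0 min overlapped in KO cells and did not in WT cells. The fall of 0.47 ± 0.11 (adjusted p = 0.0353) left 72.33% (95% interval 61.24 to 85.43). This call was lost in 11 of the 18 fits that left out 1 array, among them the fit without WT replicate 3 at 0 min (-0.44, adjusted p = 0.0654).

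**Figure D3:**
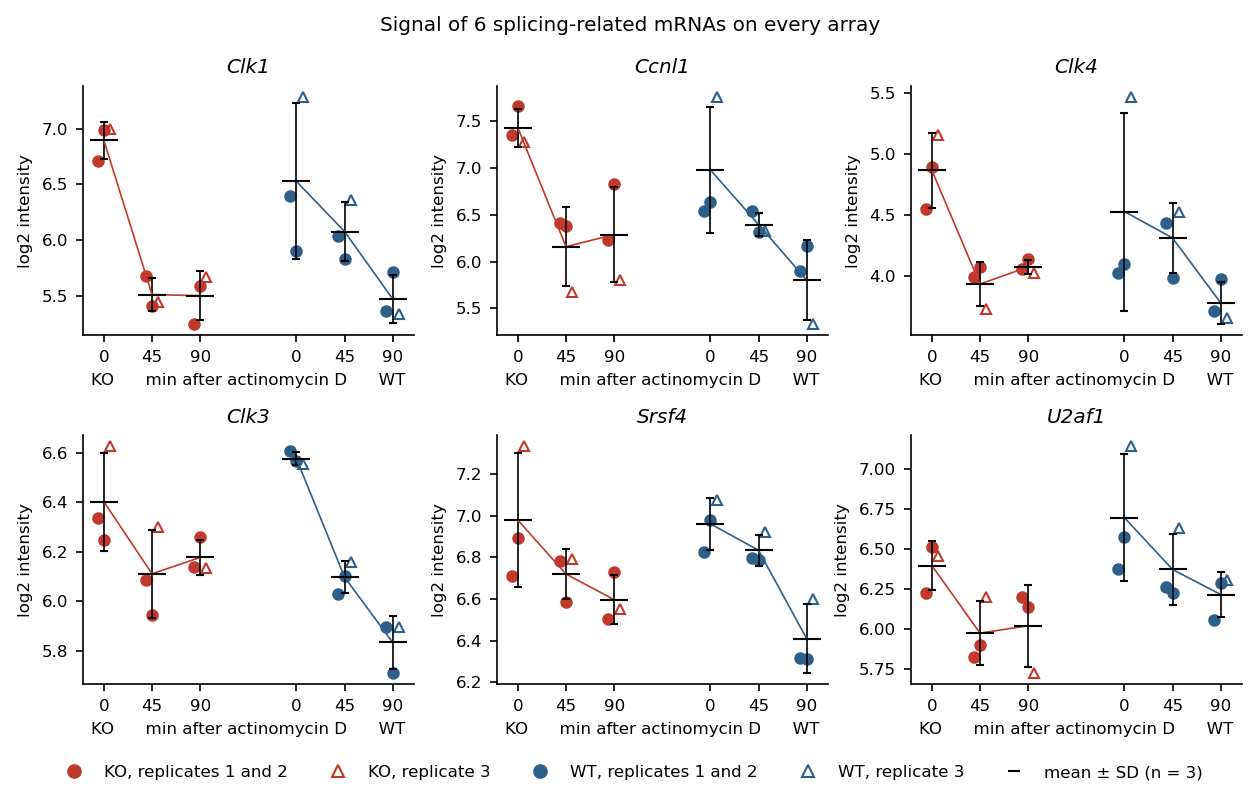
Log2 intensity (y axis) of 6 mRNAs on every array at 0, 45 and 90 min after actinomycin D (x axis), KO left and WT right; bars are the mean ± SD of 3 arrays and open triangles mark replicate 3. Clk1 lies at 5.25 to 5.68 on all later KO arrays, below 6.71 to 6.99 at 0 min, and replicate 3 of WT cells at 0 min is the highest WT point for Clk1, Ccnl1, Clk4, Srsf4 and U2af1 but not for Clk3.

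Clk4 and U2af1 came next in size and did not pass. Clk4, a CLK kinase at chr11:51263114-51281770, measured 4.54, 4.90 and 5.15 at 0 min, 3.99, 4.07 and 3.73 at 45 min, and 4.06, 4.14 and 4.02 at 90 min in KO cells. In WT cells it measured 4.02, 4.10 and 5.46 at 0 min, 4.43, 3.98 and 4.52 at 45 min, and 3.71, 3.98 and 3.65 at 90 min. Its 90 min arrays lay below its 0 min arrays in both genotypes. They were near the limit for testing of 3.03, where a fall may be understated, which was not tested. The change was -0.77 ± 0.20 (adjusted p = 0.0572). It passed without WT replicate 3 at 0 min (-0.54, adjusted p = 0.043) and with the title-number run as a block (adjusted p = 0.0186), where 5 of the 40 genes were lower against 4.39% of all genes. U2af1, which encodes the small subunit of U2AF that reads the AG of the 3′ splice site, changed by -0.43 ± 0.14 (adjusted p = 0.167). It measured 6.20, 6.14 and 5.73 at 90 min in KO cells against 6.22, 6.51 and 6.45 at 0 min, and 6.06, 6.28 and 6.30 at 90 min in WT cells against 6.37, 6.57 and 7.14 at 0 min.

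Falls, but not rises, were also counted by array values alone. All 90 min arrays lay below all 0 min arrays within each genotype for Clk1, Clk4, Ccnl1 and U2af1, 4 of the 40 genes. This held for 2.07% of all genes tested. In KO cells alone 7 genes did so, with Tra2b, Rbm39 and Luc7l added, against 6.22% of all genes. In WT cells alone 6 did so, with Clk3 and Srsf4 added, against 7.24% of all genes. As the set was chosen with earlier results known, these shares are descriptive only.

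The 4 other kinases and cyclins were not called. Srpk1, the cyclin Ccnl2, Srpk2 and the tri-snRNP kinase Prpf4b changed by -0.09, -0.02, -0.01 and -0.09 over both genotypes at 90 min. The 95% interval of Srpk1 left 81.16 to 108.48% of its level at 0 min, and that of Prpf4b, the widest of the 4, left 68.70 to 128.90%. Falls as large as those of Clk1 lie outside these intervals.

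Of the 12 SR and SR-like genes besides Srsf4, none passed. Tra2b, a partner of SR proteins in exon inclusion, changed by -0.19 and Srsf6 by -0.17. Srsf3, Srsf9, Srsf1, Srsf5, Srsf2 and Srsf10 lay between -0.02 and 0.09. Tra2a, Srsf11 and the coactivators Srrm1 and Srrm2 were at 0.11, 0.15, 0.13 and 0.22. The rows of Srsf10 and of Srsf3 did not share a sign in this comparison: their brightest rows gave 0.09 and -0.02, and their dimmest rows -0.06 and 0.08.

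Among the RBM genes, Rbm5, which controls exon choice in apoptosis genes, changed by -0.32 ± 0.15 (adjusted p = 0.505). Rbm39, a coactivator related to U2AF, changed by -0.09, and Rbm3, a cold-inducible protein, by 0.23 ± 0.12 (adjusted p = 0.65). No hnRNP passed. Hnrnpf, Hnrnpu, Hnrnpk, Hnrnpc and Ptbp1 were between -0.02 and 0.05, and Hnrnpm, Hnrnpl, Hnrnph1 and Hnrnpa2b1 between 0.12 and 0.24. Of the U1 and U2 factors, Luc7l2, a U1-associated protein, had the largest positive change of the 40 genes, 0.36 ± 0.17 (adjusted p = 0.499), while its relative Luc7l was at -0.20. Sf3a1 and Sf3b1, subunits of the U2 snRNP, were at -0.15 and 0.09, and U2af2 and the branch point protein Sf1 at 0.00 and 0.01.

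At 45 min over both genotypes only Clk1 was lower, at -0.92 ± 0.18 (adjusted p = 0.0303), against 0.497% of all genes. Ccnl1 was at -0.92 (adjusted p = 0.0891) and Clk4 at -0.57 (adjusted p = 0.476). Same-numbered arrays deviated together in both 45 min comparisons. Replicate 3 was the smaller run in every group, so these deviations do not separate pairing from the run. Pairing of replicates 1 and 2 within the larger run was not tested. With the replicate as a block 2 genes were lower, Clk1 and Ccnl1 (adjusted p = 0.0452), against 1.09% of all genes. With the title-number run as a block Clk3 was added (3 genes, against 1.17% of all genes). The call of Clk1 was lost in 6 of the 18 fits that left out 1 array, which were those without KO replicate 2 or 3 at 0 min, KO replicate 2 or 3 at 45 min, or WT replicate 1 or 2 at 45 min. The largest positive changes were those of Hnrnpa2b1 (0.30), Luc7l2 (0.30) and Srrm2 (0.26), none of which passed. Between 45 and 90 min no gene of the set passed, against 0.00975% of all genes, and 1 had an unadjusted p under 0.05, as did 1.99% of all genes. Clk1, Srsf4 and Ccnl1 had the lowest values in that interval, -0.31, -0.27 and -0.23, and Hnrnpl, Ptbp1 and Srsf2 the highest, 0.20, 0.17 and 0.09.

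In KO cells, Clk1 was the only one of the 40 genes that was lower at 90 min, by -1.40 ± 0.26 (adjusted p = 0.0318), against 0.224% of all genes. The fall was of like size in each replicate, -1.46, -1.40 and -1.33. The call was lost in 8 of the 18 fits without 1 array, those without any 1 KO array at 0 min, KO replicate 1 or 3 at 90 min, WT replicate 1 or 2 at 45 min or WT replicate 1 at 90 min, and with no filter on dim genes. Ccnl1 (-1.14, adjusted p = 0.274) and Clk4 (-0.79, adjusted p = 0.615) followed, and Hnrnpl (0.41), Srrm2 (0.31) and Sf3a1 (0.25) had the highest values. At 45 min no gene passed in KO cells, against 0.0487% of all genes, and 4 had an unadjusted p under 0.05, as did 5.26% of all genes. Clk1 was at -1.39 (adjusted p = 0.0568), Ccnl1 at -1.27 and Clk4 at -0.93, while Luc7l2, Srrm2 and Hnrnpl were at 0.25, 0.23 and 0.21. With the replicate as a block Clk1 passed at 45 min (adjusted p = 0.027), against 0.253% of all genes.

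In WT cells, Clk3 was the only gene lower at 90 min, by -0.74 ± 0.14 (adjusted p = 0.00827), against 1.22% of all genes. It was lower in every replicate, by 0.71, 0.86 and 0.66. Ccnl1 was at -1.18 (adjusted p = 0.0931), Clk1 at -1.06 (adjusted p = 0.057) and Clk4 at -0.75 (adjusted p = 0.341). Their falls differed between arrays: those of Clk1 were -1.04, -0.18 and -1.95 in replicates 1, 2 and 3. With the title-number run as a block 4 genes were lower, Clk1, Clk3, Ccnl1 and Srsf4, against 2.84% of all genes. Luc7l2 (0.56, adjusted p = 0.461), Hnrnph1 (0.42) and Hnrnpa2b1 (0.40) were highest and did not pass. At 45 min no gene passed in WT cells, against 0.127% of all genes, and 2 had an unadjusted p under 0.05, as did 3.89% of all genes. Ccnl1, Clk3 and Clk1 were at -0.58, -0.48 and -0.45, and Hnrnpa2b1, Hnrnph1 and Sf3b1 at 0.50, 0.49 and 0.47.

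The array of WT replicate 3 at 0 min moved these WT values. Without it, Clk1 changed by -0.68 at 90 min (adjusted p = 0.0837) and Ccnl1 by -0.79 (adjusted p = 0.155), whereas Clk3 kept its value at -0.75 (adjusted p = 0.0149). Without it, 5 genes were higher at 45 min, Srsf11, Rbm39, Hnrnpa2b1, Hnrnph1 and Sf3b1, by 0.77 to 0.85, against 2.36% of all genes. At 90 min Luc7l2 (0.89, adjusted p = 0.026) and Sf3b1 (0.70, adjusted p = 0.04995) were higher without it, against 1.59% of all genes. In the 12 arrays of the larger run alone, 10 genes were higher at 90 min, by 0.58 to 0.96, against 7.46% of all genes: Srsf1, Srsf11, Tra2a, Rbm39, Hnrnpa2b1, Hnrnph1, Hnrnpm, Hnrnpu, Sf3b1 and Luc7l2. In the remaining run each group had 1 array, so it gave no test.

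Whether loss depended on TTP was read from the difference in change between genotypes. None of the 40 genes passed at 90 min, against 0.0195% of all genes, with 3 at an unadjusted p under 0.05 (2.67% of all genes). None passed at 45 min, against 0.00975%, with 2 at an unadjusted p under 0.05 (1.82% of all genes). At 90 min Sf3a1, Hnrnpl and Clk3 had the highest differences, 0.79, 0.53 and 0.52, so that they had fallen less or risen more in KO cells, and Sf3b1, Srpk2 and Hnrnpm the lowest, -0.56, -0.51 and -0.50 (adjusted p = 0.999 for each). The 95% interval of the difference at 90 min was -1.11 to 0.43 for Clk1, -0.91 to 0.98 for Ccnl1 and 0.10 to 0.93 for Clk3. The intervals of Clk1 and Ccnl1 are wide enough to hold differences as large as a good part of the falls themselves. At 45 min Clk1, Clk4 and Ccnl1 were lowest, at -0.93 (95% interval -1.71 to -0.16), -0.71 and -0.69, and Hnrnpl, Sf3a1 and Sf1 highest, at 0.54, 0.40 and 0.33. Without WT replicate 3 at 0 min, 3 genes had a larger fall in KO cells at 45 min, against 0.77% of all genes: Clk1 (-1.31, adjusted p = 0.0468), Rbm39 (-1.19, adjusted p = 0.0468) and Clk4 (-1.18, adjusted p = 0.0496). In the 12 arrays of the larger run none of the 40 passed in that comparison, against 0% of all genes, with Clk1 at -1.09 (adjusted p = 0.155), Rbm39 at -0.95 (adjusted p = 0.155) and Clk4 at -0.83 (adjusted p = 0.208). The fall of Clk1 at 45 min was -1.03, -1.58 and -1.55 in KO replicates, against -0.36, -0.07 and -0.92 in WT replicates. These genotype values share the 0 min arrays with the comparisons over time.

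Before the transcription block, none of the 40 genes differed between KO and WT cells, against 0% of all genes. At an unadjusted p under 0.05 there were 2 of the 40 and 777 of all genes tested. Hnrnpl, a regulator of exon choice that binds CA repeats, lies at chr7:28808546-28822268. It had values of 7.75, 7.96 and 7.98 in KO cells at 0 min, against 8.31, 8.42 and 8.48 in WT cells. The difference was -0.51 ± 0.15 (adjusted p = 0.563). Sf3a1 and U2af1 followed at -0.42 and -0.30. The highest differences were those of Prpf4b (0.59), Hnrnpu (0.52) and Sf3b1 (0.47).

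Without WT replicate 3, 8 of the 40 genes were higher in KO cells at 0 min, against 7.19% of all genes: Clk1, Clk4, Rbm39, Hnrnph1, Hnrnpu, Sf3b1, Luc7l2 and Prpf4b, by 0.73 to 1.04. Rbm39 shows the dependence. It measured 7.77, 7.97 and 8.01 in KO cells, against 7.01, 7.03 and 8.56 in WT cells, so that 2 WT arrays lay below all KO arrays and the other above them. Prpf4b measured 5.72, 5.95 and 6.27 in KO cells, against 4.68, 5.20 and 6.30 in WT cells, with the same order. In the 12 arrays of the larger run 7 genes were higher in KO cells, Ccnl1 among them, against 8.19% of all genes. Centring on ribosomal protein genes moved the median of all genes in this comparison by 0.25 and that of the 40 genes to 0.34, against 0.09 before, with none of the 40 called and 7 of all genes tested higher.

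**Figure D4:**
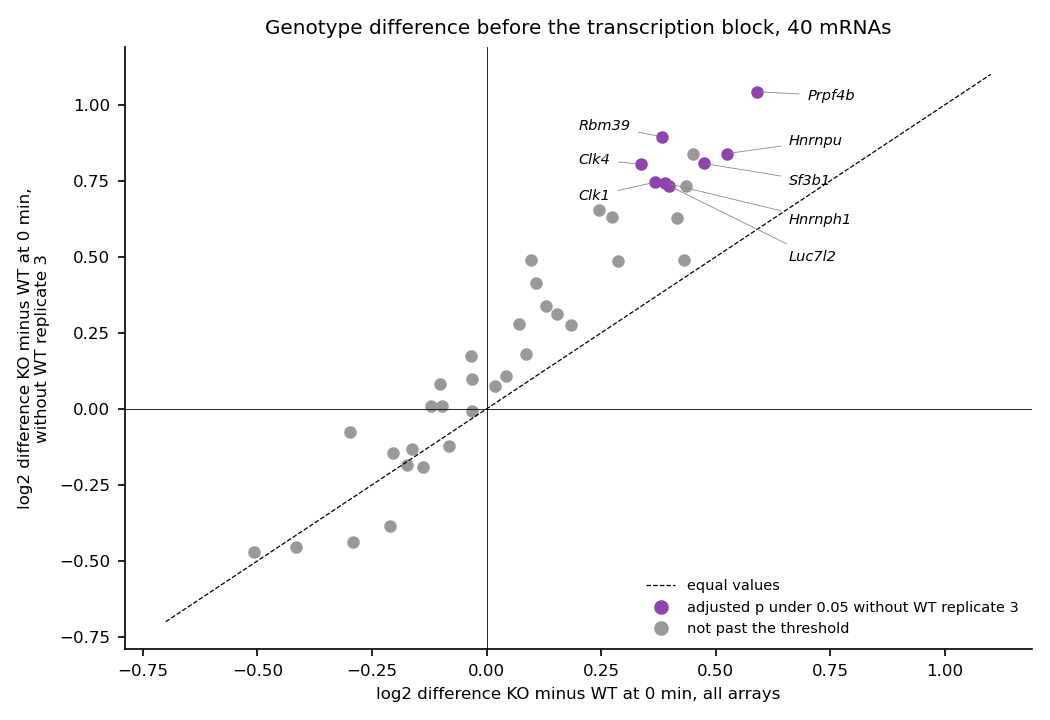
Log2 difference KO minus WT at 0 min for 40 mRNAs, from all arrays (x axis) and without WT replicate 3 (y axis); the dashed line marks equal values. No gene passed with all arrays, and the 8 purple points, at 0.73 to 1.04 on the y axis, passed without that array.

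Averaged over the 3 times, none of the 40 genes differed between KO and WT cells, against 1.33% of all genes, and 1 had an unadjusted p under 0.05, as did 11.6% of all genes. This was U2af1, at -0.30 (95% interval -0.54 to -0.05, adjusted p = 0.287), followed by Hnrnpc (-0.23) and Srsf3 (-0.20). Prpf4b (0.28), Ccnl1 (0.23) and Luc7l2 (0.23) were highest.

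Other genes of the splicing machinery, 132 tested in 6 lists, were set beside these. None was called over both genotypes at 90 min, where 2.28% of all genes were lower. At 90 min none was called in KO cells either (0.224% of all genes lower), or in WT cells (1.22% of all genes lower). The difference between genotypes at 90 min also gave none (0.0195% of all genes called). Over both genotypes at 90 min, 7 of the 132 were lower and 1 higher at an unadjusted p under 0.05, against 8.33% and 1.68% of all genes, and the median was 0.00. The list of 24 genes of the U1, U2 and Sm snRNPs also held associated factors such as Tia1. Luc7l3 (-0.30) and Sf3b4 (-0.16) were lowest there, and Ddx46 (0.33) and Tia1 (0.24) highest. Among 26 tri-snRNP, Prp19 complex and helicase genes, Prpf3, a protein of the U4/U6 snRNP, was lowest at -0.47 (adjusted p = 0.115), followed by Cdc40 (-0.32), and Crnkl1 (0.17) and Sart1 (0.13) were highest. Of 14 exon junction and export genes, Casc3 (-0.45) and Eif4a3 (-0.27) were lowest and Thoc2 (0.23) and Nxf1 (0.19) highest. The 15 other hnRNPs ran from -0.09 (Hnrnpdl) and -0.08 (Raly) up to 0.22 (Syncrip) and 0.25 (Ptbp2). Of 26 other splicing regulators, Rbm15 (-0.44) and Rbm10 (-0.22) were lowest, and Rbm6 (0.35, adjusted p = 0.0731) and Taf15 (0.30) highest. Of 27 other nuclear speckle proteins and kinases, Scaf8 was lowest (-0.56, adjusted p = 0.108), followed by the kinase Dyrk1a (-0.45). Cdk11b, a kinase that partners with L-type cyclins, was highest there (0.28), followed by Hipk2 (0.25). Over all times Snrpd2, a core Sm protein, was lower in KO cells by 0.34 ± 0.07 (adjusted p = 0.0255). It was the only call among the 132 in that comparison, against 1.33% of all genes.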

How the data were processed

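Affymetrix Mouse Gene ST 1.0 arrays measured RNA of 6 groups with 3 arrays each. RMA and Affymetrix Expression Console produced the values, per the submitters' processing notes; a version is not given in the sources used. The authors deposited each value as an intensity, taken as linear from its range (array medians 7.41 to 8.19). Their log2 was taken without an offset. Of 25138 rows, 21039 had 1 symbol in the platform annotation; symbols were updated through RefSeq (GRCm38.p6), and 84 rows kept an older one. The brightest row stood for each of 19454 genes. Testing covered the 10258 genes with at least 1 group mean at or above the median over rows with 1 symbol (log2 3.03).

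A model of the 6 groups over 18 arrays was fitted in limma 3.58.1 (R 4.3.3), with Benjamini-Hochberg adjustment over all genes tested, at 0.05. Errors are SE of the fit unless given as SD, and intervals are 95%. The fitting was tested on simulated data. The number of arrays limits the precision. Same-numbered replicates deviated together in KO cells at 90 and at 45 min, in WT cells at 45 min and between genotypes at 0 min (correlations of 0.16 to 0.69), but not in WT cells at 90 min (-0.29 to 0.42). Replicate 3 was the smaller run in every group, so these correlations do not separate pairing from the run. The main fit has no block. Alternatives were blocks, the larger title-number run, filters, an offset, normalization, centring, row averaging, array weights and leaving out each array.

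The members and lists were chosen with earlier results of these data known. Members past the threshold were named in each comparison, or the 3 with the largest change in a direction where fewer than 3 passed; in the lists of other splicing genes the 2 largest changes in each direction are given, or the genes past the threshold.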

Additional observations from a re-analysis of the deposited data

How the results depend on the processing

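Over both genotypes at 90 min the falls of Clk1 and Ccnl1 passed in all 29 alternatives (-1.38 to -1.02 and -1.29 to -0.76), that of Clk3 in 28 and that of Srsf4 in 16; no called result changed sign. Of the 40 genes, 3 to 5 were lower when 1 array was left out and 3 to 6 under the other alternatives. For the remaining counts of called genes, the value with all arrays is followed by those that moved. Counts over all genes tested in the same fit are given in brackets. Over both genotypes at 90 min, 0 were higher (6), and 2 in the larger run (216) and 1 with array weights (83). At 45 min 1 was lower (51), and 2 with the replicate block (112) and 3 with the run block (120). An offset of 8 gave 2 (53), array weights 3 (175) and leaving out 1 array 0 to 1 (29 to 67). In KO cells at 90 min 1 was lower (23), and 0 with no filter (12) and 2 with array weights (85). It was 0 to 1 without 1 array (2 to 63). In KO cells at 45 min 0 were lower (5), and 1 with either block (26 and 28), quantile normalization (10) or either centring (13 each). The larger run gave 2 (39), array weights 3 (61) and leaving out 1 array 0 to 2 (1 to 20). In WT cells at 90 min 1 was lower (125), and 4 with either block (286 and 291) or array weights (509). It was 2 in the larger run (613), with quantile normalization (114) or housekeeping centring (112). Ribosomal centring gave 0 (80), and leaving out 1 array 1 to 2 (68 to 147). In that comparison 0 were higher (1), and 10 in the larger run (765) and 4 with array weights (355). Leaving out 1 array gave 0 to 2 higher (1 to 163). In WT cells at 45 min array weights gave 1 lower (236) and 11 higher (602), and the larger run 1 higher (218). Without 1 array, 0 to 5 were higher there (0 to 242). Between genotypes at 0 min array weights gave 1 lower (402) and 13 higher (1189), and the larger run 7 higher (840). Without 1 array, 0 to 8 were higher there (0 to 738). Over all times array weights gave 4 higher (910) and the larger run 1 (500). For the difference at 45 min array weights gave 1 lower (52) and leaving out 1 array 0 to 3 (0 to 79). The highest of these counts without 1 array in WT cells at 45 min, between genotypes and for the difference came from the fit without WT replicate 3 at 0 min; other causes were not tested. Where same-numbered arrays deviated together, the replicate block changed no call among the 40 genes beyond those given.

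Over all genes tested at 90 min, 234 were lower and 6 higher; the larger run gave 216 higher, array weights 483 lower and 83 higher, the run block 450 and 24, and leaving out 1 array 151 to 303 and 3 to 26. With the replicate block, 112 against 51 genes were lower over both genotypes at 45 min, 56 against 23 in KO cells at 90 min and 26 against 5 in KO cells at 45 min, and between genotypes at 0 min 13 were lower and 19 higher, against 0 and 0. Ribosomal centring moved the median of all genes by 0.25 between genotypes at 0 min, 0.17 over all times, and -0.13 and -0.12 for the differences at 90 and 45 min. Signals near the limit for testing, such as that of Clk4, may understate a fall, which was not tested.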

Other observations

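Where several rows measured 1 gene, most gave like changes over both genotypes at 90 min. Both rows of U2af1 were at -0.43, the 4 rows of Hnrnpf at -0.02 to -0.01, and the 3 rows of Rbm3 at 0.20 to 0.23. Tra2a was an exception in size: its brightest row was at 0.11, and its dimmer rows, with mean log2 intensities of 5.85 and 5.38, at 0.32 and 0.33. Averaging the rows of each gene left the same count of 4 lower genes.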
